A study of Mus musculus with 9 samples.

Results

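The 9 genes described here encode cytokines of the interleukin-1 (IL-1) and tumour necrosis factor (TNF) families with their receptors and 1 natural inhibitor. They were taken by symbol through Entrez identifiers (Il1a, Il1b, Il1rn, Il1r1, Il1rap, Il18, Tnf, Tnfrsf1a and Tnfrsf1b), and all 9 were found among the 27179 genes of the count table and among the 16749 genes with enough counts to be tested. Each library came from the spinal cord of 1 C57BL/6 mouse, with 3 mice in each of 3 groups. Control mice were set beside mice that had EAE, experimental autoimmune encephalomyelitis, in which the immune system attacks myelin and which serves to model multiple sclerosis. The third group, EAE+EHP-101 (called treated below), had EAE as well and was dosed orally with the compound EHP-101 (20 mg/kg). The sources used here do not give how EAE was induced, the day of sampling, the length of treatment, the age and sex of the mice or what the Control and EAE mice received in place of the compound.

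IL-1 alpha and IL-1 beta both signal through the receptor IL1R1, which needs the accessory chain IL1RAP, and the receptor antagonist encoded by Il1rn occupies IL1R1 without signalling. IL-18, a relative made as an inactive precursor like IL-1 beta, uses receptor chains of its own. TNF binds TNFR1 (Tnfrsf1a), which carries a death domain and is found on most cells, and TNFR2 (Tnfrsf1b), which has none and is more restricted to leukocytes, microglia and endothelium. Both families lead to the transcription factor NF-kB, and in the nervous system microglia and infiltrating myeloid cells are known sources of IL-1 and TNF.

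The sequences just upstream of the start sites of Il1a, Il1b and Tnf are shown because these 3 ligand genes were called higher in EAE and lower on treatment below. They were thus chosen by their values in these data. Each run holds the 250 bases before the RefSeq start in GRCm38.p6, written 5′ to 3′ on the strand of the gene (minus strand for all 3), and capitals mark motif matches.
Il1a, chr2:129309973-129310222: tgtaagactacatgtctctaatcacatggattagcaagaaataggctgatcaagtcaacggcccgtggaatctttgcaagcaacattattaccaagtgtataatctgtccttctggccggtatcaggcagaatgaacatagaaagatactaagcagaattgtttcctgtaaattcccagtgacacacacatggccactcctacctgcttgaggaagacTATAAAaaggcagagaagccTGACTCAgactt
Il1b, chr2:129371140-129371389: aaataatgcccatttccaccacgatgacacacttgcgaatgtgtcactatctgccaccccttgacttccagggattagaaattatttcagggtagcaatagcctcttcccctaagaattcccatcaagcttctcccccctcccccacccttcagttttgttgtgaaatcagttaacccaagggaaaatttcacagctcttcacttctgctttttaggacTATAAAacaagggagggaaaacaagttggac
Tnf, chr17:35202008-35202257: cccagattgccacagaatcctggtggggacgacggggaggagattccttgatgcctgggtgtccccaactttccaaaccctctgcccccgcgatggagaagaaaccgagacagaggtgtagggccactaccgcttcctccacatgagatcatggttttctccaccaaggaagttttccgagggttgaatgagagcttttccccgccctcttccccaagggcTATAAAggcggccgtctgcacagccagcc
All 3 held the TATA box letters TATAAA on the gene's strand. It began 32 bases before the start in Il1a, 31 in Il1b and 29 in Tnf. Of 32851 RefSeq start sites in all, 7.59% had TATAAA in this window, and among the 12 start sites listed for the 9 genes these were the only 3. Il1rn, which rose in EAE as well, had none, and a link between TATAAA and the changes was not tested. Il1a also held TGACTCA, a match to the AP-1 motif TGANTCA (searched on both strands, 6.75% of all start sites), and the first of 3 start sites of Il1rn held TGAGTCA. A longer NF-kB consensus (both strands, 4.11% of all start sites) matched 1 of the 12 windows, that of the third Il1rn start, and an interferon response element pattern (both strands, 2.98% of all start sites) matched 1, that of Tnfrsf1b. No match overlapped another. These are matches of letters in short windows and not measured binding sites.

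Libraries held 30448507 to 32661741 counts. Treated replicate 1 stood nearer the Controls than the other treated libraries on the first principal component of all genes (-22.2, against 8.36 and 15.2, with Controls from -47.2 to -40.9). Neurons, oligodendrocytes and astrocytes were represented in every library, with each of the marker genes fixed for them detected throughout. Control replicate 1 had 34.1 CPM of skeletal muscle markers, where the other libraries had 3.44 to 4.41 CPM. Levels are given as normalised CPM, counts scaled by library size and TMM factor, and fold changes come from 1 edgeR quasi-likelihood fit of all libraries with p-values adjusted over all tested genes by the Benjamini-Hochberg method. A gene is called where the adjusted p is under 0.05. Since the tissue was not sorted, a change in the number of cells of a type and a change in RNA per cell cannot be told apart in any of the values below.

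The first comparison, EAE against Control, addresses these transcripts in the disease model. The ligand genes Il1a, Il1b and Tnf, the antagonist gene Il1rn and the receptor genes Tnfrsf1a, Tnfrsf1b and Il1r1 rose, while Il18 and Il1rap were not called. Fitted rises ran from 1.49-fold for Il1r1 to 50.4-fold for Il1rn, where the largest rest on few Control counts. Thus 7 of the 9 genes were called higher and 0 lower, where 20.2% of all tested genes were called higher and 16.7% lower (3391 and 2800 genes, together 37%). With each library's trend with gene length removed those counts were 1887 and 2919, and 7 of the 9 genes were still higher. The median log2 fold change of the 9 genes was 1.75, beside 0.01 over all tested genes. All 7 called genes had EAE libraries wholly above the Control libraries, as had 25.6% of tested genes (21.1% lay wholly below, 46.6% either way). The 9 genes were chosen with earlier results of these data known. Their counts beside the shares of all genes, here and below, are thus a description and no test of the set.

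**Figure D1:**
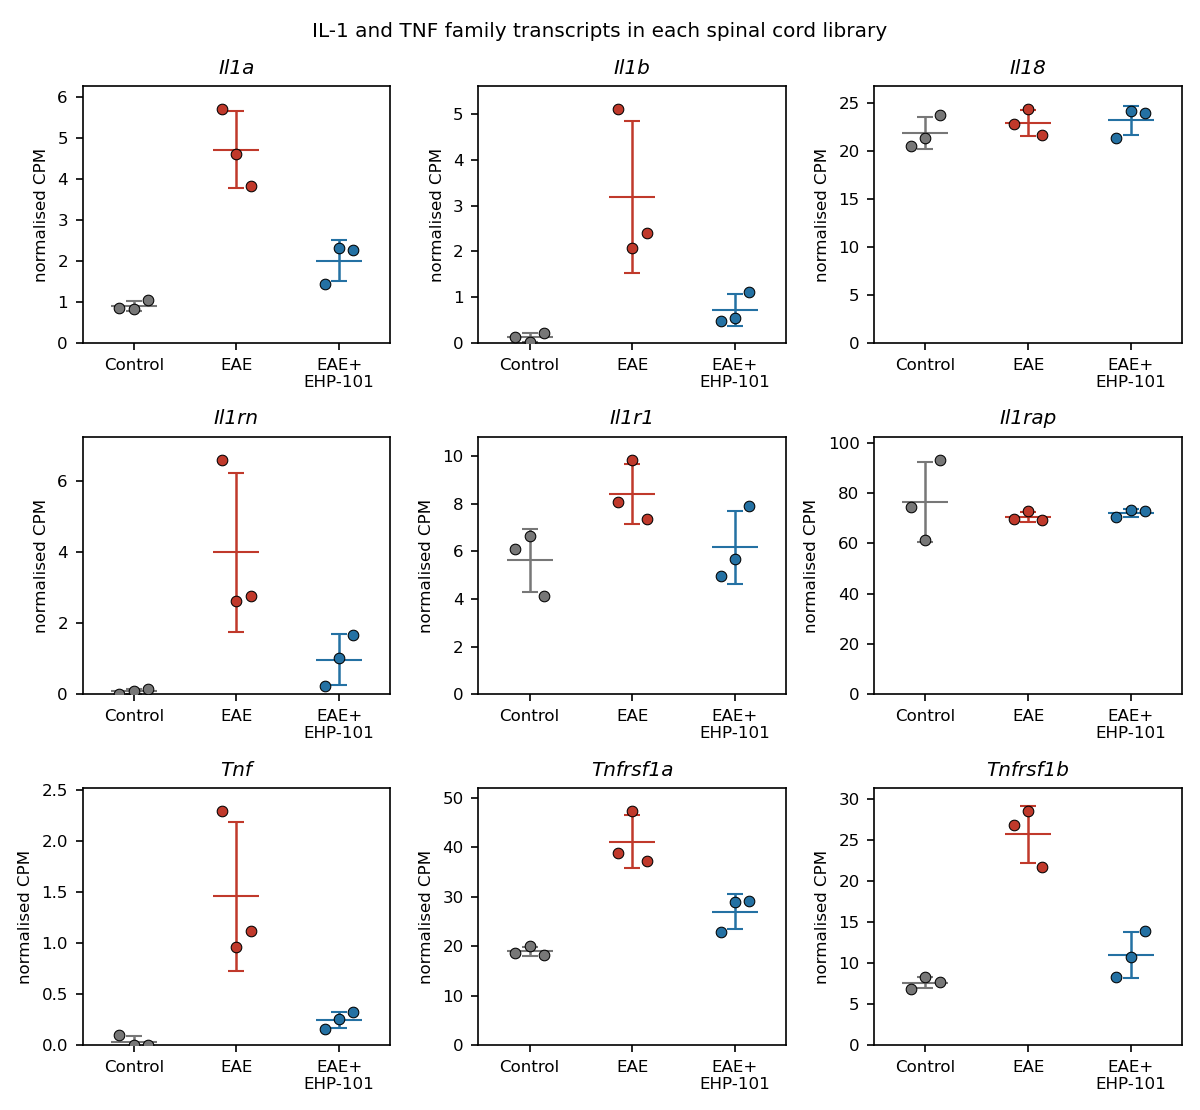
Normalised CPM (y axis, from 0, a separate scale for each gene) of the 9 genes in the 3 groups, with 1 point per library, a bar for the mean and whiskers for the SD (n = 3). Il1a, Il1b, Il1rn, Tnf, Tnfrsf1a and Tnfrsf1b stand highest in EAE with the treated libraries below them, while Il18 and Il1rap lie at like levels in all groups.

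Il1b, the main secreted IL-1, had 4, 1 and 7 counts in the Control libraries and 169, 65 and 77 in the EAE libraries. That gave 0.131 ± 0.0988 CPM in Control and 3.196 ± 1.66 CPM in EAE (SD, n = 3), higher by 23.97-fold (log2 4.58, SE 0.57, adjusted p = 0.000183). EAE replicate 1 held the highest value, and even the lowest EAE library lay far above all Controls. Without Control replicate 3 the log2 fold change was 5.21. Tnf was the scarcest member, with 3, 0 and 0 counts in Control and 76, 30 and 36 in EAE. Scaled for depth, the summed counts stood in a ratio of 45.5 (exact 95% interval 15.2 to 223, for counting error only). The fitted log2 fold change was 5.33 (SE 0.70, adjusted p = 0.000248), and 8.52 without Control replicate 1, the only Control library with a read of the gene. With 0 Control counts left, 8.52 is not a measured fold change. As for Il1b, EAE replicate 1 was the highest library.

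Il1a, whose product acts from the cell surface and on release from damaged cells as well as by secretion, was already measurable in Control. It had 0.854, 0.823 and 1.05 CPM there and 5.71, 4.61 and 3.84 CPM in EAE. The rise was 5.18-fold (log2 2.37, SE 0.23, adjusted p = 5.09e-05). The 3 EAE libraries were closer to one another than for Il1b, with an SD of 19.9% of the mean against 51.9%. Il1a exons share 222 bases with the antisense gene Gm14023. Whether counting used the strand is not given in the sources used here. Gm14023 had 12 to 19 counts a library, which does not show how the shared bases affected the Il1a counts.

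Il18 did not follow the other ligand genes. Its levels were 20.5, 21.4 and 23.8 CPM in Control and 22.8, 24.4 and 21.7 CPM in EAE, so that the groups overlapped. The log2 difference of 0.07 had a 95% interval of -0.11 to 0.25 (adjusted p = 0.537). With the gene length trend removed the difference was -0.28 and passed the threshold (adjusted p = 0.0113), so the direction of any small change depended on that setting.

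Il1rn, the brake of the system at the receptor, rose as well. It had 0, 3 and 4 counts in Control and 218, 82 and 89 in EAE. The level went from 0.0753 ± 0.0677 to 3.995 ± 2.24 CPM (log2 5.65, SE 0.80, adjusted p = 0.000385). Il1rn and Tnf had 7 and 3 counts over the Controls, too few to order the 2 rises by size. Without Control replicate 1 the fit gave log2 5.07 for Il1rn and 8.52 for Tnf. The latter had 0 Control counts left, so its value is not a measured fold change. The order of the EAE libraries matched that of Il1b and Tnf, with replicate 1 highest.

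Receptor genes changed less. Tnfrsf1b had 6.86, 8.29 and 7.63 CPM in Control and 26.8, 28.4 and 21.7 CPM in EAE, a rise of 3.37-fold (log2 1.75, SE 0.17, adjusted p = 4.46e-05). Tnfrsf1a had 18.6, 20.0 and 18.2 CPM in Control and 38.9, 47.3 and 37.1 CPM in EAE, a rise of 2.17-fold (log2 1.12, SE 0.11, adjusted p = 5.57e-05). Neither gene's groups came near each other, and both were called in every setting run. Il1r1, the signalling IL-1 receptor, was nearer the limit. It had 6.11, 6.64 and 4.13 CPM in Control and 8.06, 9.84 and 7.36 CPM in EAE (1.49-fold, log2 0.58, SE 0.21, adjusted p = 0.0455). The call ended with upper quartile scaling (adjusted p = 0.0526), with the replicate number as a block (adjusted p = 0.0668) and in 6 of the 9 fits with a library left out, where the adjusted p was 0.0755, 0.0519 and 0.154 without Control replicates 1, 2 and 3, 0.0847 and 0.194 without EAE replicates 1 and 2, and 0.0672 without treated replicate 2.

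Il1rap, the shared accessory chain, was abundant and not called. It ran from 61.3 to 93.0 CPM in Control and from 69.1 to 72.8 CPM in EAE. The EAE values thus lay inside the Control range. The log2 difference was -0.11 with a 95% interval of -0.37 to 0.14 (adjusted p = 0.467), and 0.11 with the length trend removed. Without Control replicate 2 Il1rap was called lower in EAE (log2 -0.28, adjusted p = 0.0337). Il1rap exons share 353 bases with the antisense gene Gm20319, which had 50 to 75 counts a library. The effect of that overlap on the Il1rap counts was not tested. Counts per gene do not separate the membrane and soluble forms of Il1rap, nor the secreted and intracellular forms of Il1rn.

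The second comparison set treated mice against EAE mice without the compound. Tnf, Il1b, Il1a, Tnfrsf1b and Tnfrsf1a fell, by 5.87-fold to 1.53-fold, and no gene of the 9 rose. Thus 5 of 9 were called lower and 0 higher, where 4.81% of all tested genes were called lower and 0.43% higher (805 and 72 genes, together 5.24%). The median log2 difference of the 9 was -1.22, beside -0.00107 over all genes. In 6 of the 9 all treated libraries lay below all EAE libraries, as in 16.9% of tested genes (27.6% in either direction). This comparison and the one with Control share the EAE libraries, so a rise in one and a fall in the other are not independent.

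Tnf fell from 76, 30 and 36 counts to 5, 8 and 10 counts. Mean levels were 1.46 ± 0.728 CPM in EAE and 0.246 ± 0.0809 CPM in treated mice (log2 -2.55, SE 0.49, adjusted p = 0.0110, a 5.87-fold lower level). All 3 treated libraries were low. The call ended without treated replicate 2 (adjusted p = 0.0501). Il1b fell from 169, 65 and 77 counts to 15, 17 and 35 counts, or to 0.717 ± 0.352 CPM (log2 -2.15, SE 0.43, adjusted p = 0.0136, a 4.45-fold lower level). Treated replicate 3 was the highest of its group and still below every EAE library. The call ended without EAE replicate 1 (adjusted p = 0.0569) or treated replicate 2 (adjusted p = 0.0688).

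Il1a had 1.44, 2.33 and 2.27 CPM in treated mice, lower by 2.34-fold than in EAE (log2 -1.23, SE 0.21, adjusted p = 0.00705). Tnfrsf1b had 8.28, 10.8 and 13.9 CPM (log2 -1.22, SE 0.16, adjusted p = 0.00240, also 2.34-fold). Tnfrsf1a had 22.9, 28.9 and 29.1 CPM (log2 -0.61, SE 0.11, adjusted p = 0.00835, 1.53-fold). These 3 were called in every alternative and with each library left out. In each of them treated replicate 1 was the lowest library, as it was for Il1b, Il1rn, Il1r1 and Tnf.

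Il1rn had 7, 31 and 52 counts in treated mice, where EAE had 82 to 218. The groups did not overlap, but the fall of the mean to 0.964 ± 0.721 CPM did not pass (log2 -2.05, 95% interval -3.23 to -0.88, adjusted p = 0.0507). It passed with no filter on low counts (adjusted p = 0.0251), with the length trend removed (adjusted p = 0.0467) and without treated replicate 3 (adjusted p = 0.0274). Il1r1 had 4.96, 5.69 and 7.91 CPM and overlapped EAE (log2 -0.44, 95% interval -0.89 to 0.00, adjusted p = 0.314). Il18 (log2 0.02, 95% interval -0.16 to 0.19) and Il1rap (log2 0.03, 95% interval -0.22 to 0.29) were not called and overlapped, so falls of the size seen in Il1a or Tnfrsf1b lay outside their intervals.

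**Figure D2:**
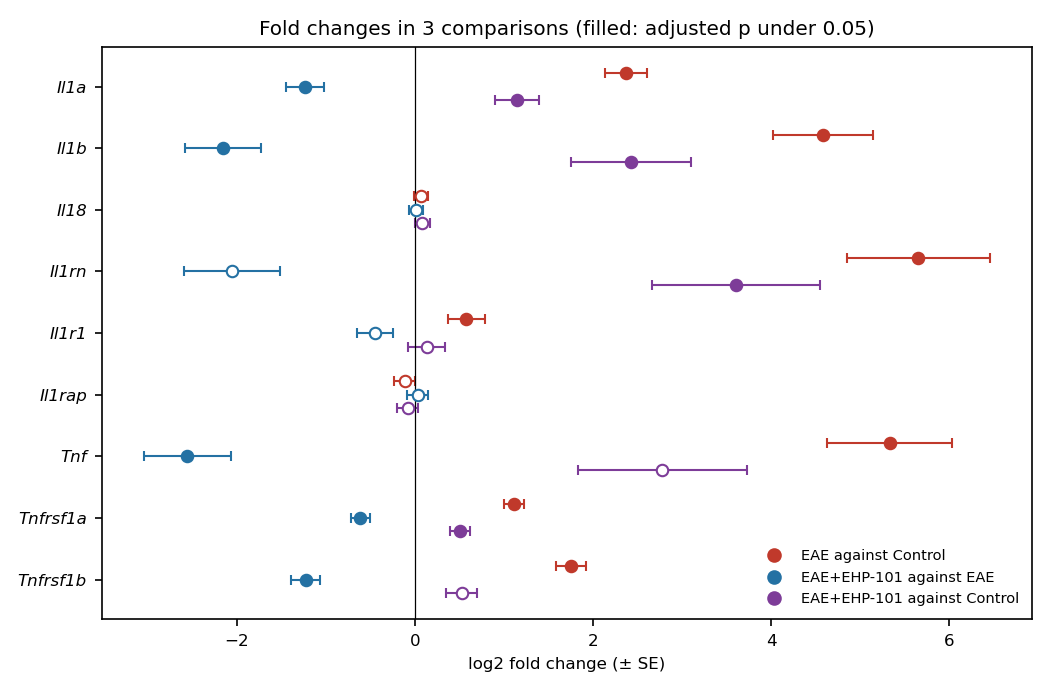
Log2 fold change (x axis) of each gene with its SE as whiskers in the 3 comparisons, by colour, with filled points for an adjusted p under 0.05. The EAE against Control points of 7 genes lie to the right, the treated against EAE points of 5 called genes to the left, and Il18 and Il1rap stay near 0 in all 3.

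Treated mice were last compared with Controls, to ask how far the levels under treatment remained from those without disease. Il1rn (12.2-fold), Il1b (5.39-fold), Il1a (2.21-fold) and Tnfrsf1a (1.42-fold) were called higher, so 4 of the 9 against 9.96% of all tested genes called higher. Genes called lower made up 9.82%, with 0 of the 9 among them, and both directions together 19.8%. Over all genes 1669 were higher and 1645 lower, 2176 and 1319 when library totals were used in place of TMM factors, and 597 and 794 with the length trend removed. None of the 4 calls held without treated replicate 2 (adjusted p = 0.0624 to 0.0769) or without treated replicate 3 (adjusted p = 0.0526 to 0.114), where 629 and 1016 genes were called in place of 3314. Without treated replicate 1 there were 5 of the 9, Tnfrsf1b being added (adjusted p = 0.00876). With only the treated and Control libraries fitted there were 3 of the 9. Il1rn and Tnf then had too few counts to be tested, since they passed the main filter through the EAE libraries.

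Il1a, with 1.15 log2 units (SE 0.25, adjusted p = 0.0120), and Tnfrsf1a, with 0.51 (SE 0.11, adjusted p = 0.0130), had treated libraries wholly above the Control libraries. The same held for Il1b (log2 2.43, SE 0.67, adjusted p = 0.0288) and Il1rn (log2 3.60, SE 0.94, adjusted p = 0.0235), both of which rested on few Control counts. Their calls also ended without Control replicate 1 (adjusted p = 0.0713 and 0.0677) or Control replicate 2 (adjusted p = 0.0991 and 0.0716). Without Control replicate 3 they were at log2 3.08 and 4.195, and without treated replicate 3 Il1rn was at log2 2.94. That of Il1b ended as well with the length trend removed (adjusted p = 0.0538), and that of Il1rn with limma voom (adjusted p = 0.0614). With Tnf, 5 of the 9 genes had treated libraries wholly above the Control libraries, as had 19% of tested genes. Of all tested genes 17.5% lay wholly below and 36.5% either way.

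Tnf and Tnfrsf1b lay just past the limit in this comparison. Tnf had 23 counts over the treated libraries against 3 over the Controls, 7.60 times as many for the depth (exact 95% counting interval 2.30 to 39.5), and adjusted p = 0.0599. All 3 Control counts came from Control replicate 1, without which the log2 fold change went from 2.78 to 5.98 and was called (adjusted p = 0.0381). With no Control count left, 5.98 is not a measured fold change. Tnf was also called without EAE replicate 1 (adjusted p = 0.0434). Tnfrsf1b had log2 0.53 (SE 0.17, adjusted p = 0.0525), and treated replicate 1, at 8.28 CPM, lay below the highest Control at 8.29 CPM. Among the settings run, both passed with the DESeq2 Wald test (adjusted p = 0.0230 and 0.0214) and with no filter on low counts (0.0497 and 0.0435). Tnf also passed with limma voom (0.0264), and Tnfrsf1b with library totals in place of TMM factors (0.0446). Il1r1 (log2 0.14, 95% interval -0.32 to 0.59), Il18 (log2 0.09, -0.09 to 0.26) and Il1rap (log2 -0.08, -0.33 to 0.17) overlapped Control.

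Levels of different genes were set side by side per kilobase of exon, using the exon length in the count table. In Control Il18 was the most abundant (25.3 ± 1.95 CPM per kb), above Il1rap (8.99 ± 1.88) and Tnfrsf1a (8.79 ± 0.447), whose libraries overlapped. Tnfrsf1b (1.55 ± 0.145) and Il1r1 (1.12 ± 0.263) came next without overlap, then Il1a (0.460 ± 0.0620). Il1b (0.0985 ± 0.0744), Il1rn (0.0280 ± 0.0252) and Tnf (0.0203 ± 0.0351) were lowest and overlapped. Receptor transcripts thus stood above those of their ligands Il1b and Tnf in Control.

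In EAE Il18 (26.5 ± 1.55 CPM per kb) was still first, followed by Tnfrsf1a (19.1 ± 2.504), Il1rap (8.31 ± 0.238) and Tnfrsf1b (5.22 ± 0.715), each without overlap with the next. Il1b (2.41 ± 1.25), Il1a (2.39 ± 0.476), Il1r1 (1.67 ± 0.253) and Il1rn (1.48 ± 0.833) formed a run in which neighbours overlapped, and Tnf (0.902 ± 0.450) overlapped Il1rn. In treated mice the order was Il18, Tnfrsf1a, Il1rap, Tnfrsf1b and Il1r1 (1.23 ± 0.305), then Il1a (1.02 ± 0.252), Il1b (0.540 ± 0.265), Il1rn (0.358 ± 0.268) and Tnf (0.152 ± 0.0499). From Il1r1 down each neighbour overlapped the next there. The ligand genes Il1a and Il1b thus lay above Il1r1 by their means in EAE and below it in the other groups.

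**Figure D3:**
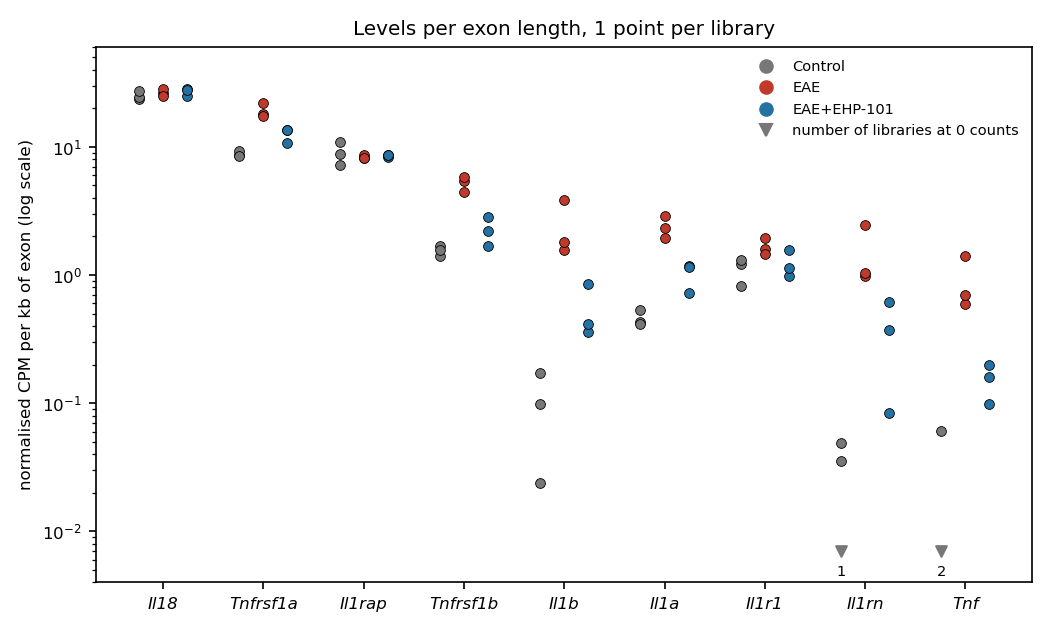
Normalised CPM per kb of exon (log scale on the y axis) for the 9 genes, ordered by their mean in EAE, with 1 point per library coloured by group and triangles counting libraries with no read. Il18 lies above the others in each group, and Tnf and Il1rn span the widest range, from no read in 2 and 1 Control libraries to 1.42 and 2.45 CPM per kb in EAE replicate 1.

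Ratios within a library were compared for 4 pairs of genes over the 3 pairs of groups, in 12 exact permutation tests, 2-sided, where 3 against 3 libraries cannot give a p below 0.1. The ratio of Tnfrsf1b to Tnfrsf1a per kb was 0.162, 0.182 and 0.184 in Control, 0.302, 0.264 and 0.256 in EAE and 0.159, 0.164 and 0.209 in treated mice. All EAE libraries exceeded all Control and all treated libraries (each exact p = 0.1, adjusted p = 0.6), while treated and Control libraries overlapped (exact p = 1). On the log2 scale EAE stood 0.64 above Control and treated mice 0.64 below EAE. The ratios of Il1rn to Il1b, of Il1r1 to Il1rap and of Tnf to Il1b overlapped between the groups in all 9 comparisons (exact p = 0.2 to 1).

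Genes of the same pathways were followed in 10 lists of 130 genes, of which 109 were tested. The lists were chosen with earlier results of these data known, so their counts are a description and no independent test. Counts in these lists stand beside the shares of all tested genes called higher and lower. Those were 20.2% and 16.7% in EAE, and 0.43% and 4.81% in treated mice against EAE. Against Control they were 9.96% and 9.82% in treated mice. In EAE 65 of the 109 were called higher and 4 lower (49 to 69 and 4 to 7 with a library left out), with a median log2 fold change of 0.56. With the length trend removed 49 were higher, all of them among the 65, and 4 lower, of which 3 were among the 4. Of the 65, 45 were called in every fit with a library left out. In treated mice against EAE 29 of the 109 were called lower and 0 higher, with a median of -0.31, and 8 of the 29 were called in every such fit. The count was 8 without EAE replicate 2, 14 without EAE replicate 1, 14 without treated replicate 2 and 19 without treated replicate 1. Against Control 24 were higher and 4 lower in treated mice, with a median of 0.25. Of these, 6 of the 24 and 0 of the 4 were called in every fit with a library left out. The 24 became 14 with the length trend removed, 12 without Control replicate 2, 16 without EAE replicate 1, 6 without treated replicate 2 and 8 without treated replicate 3, and the 4 became 0 and 1 without the last 2.

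**Figure D4:**
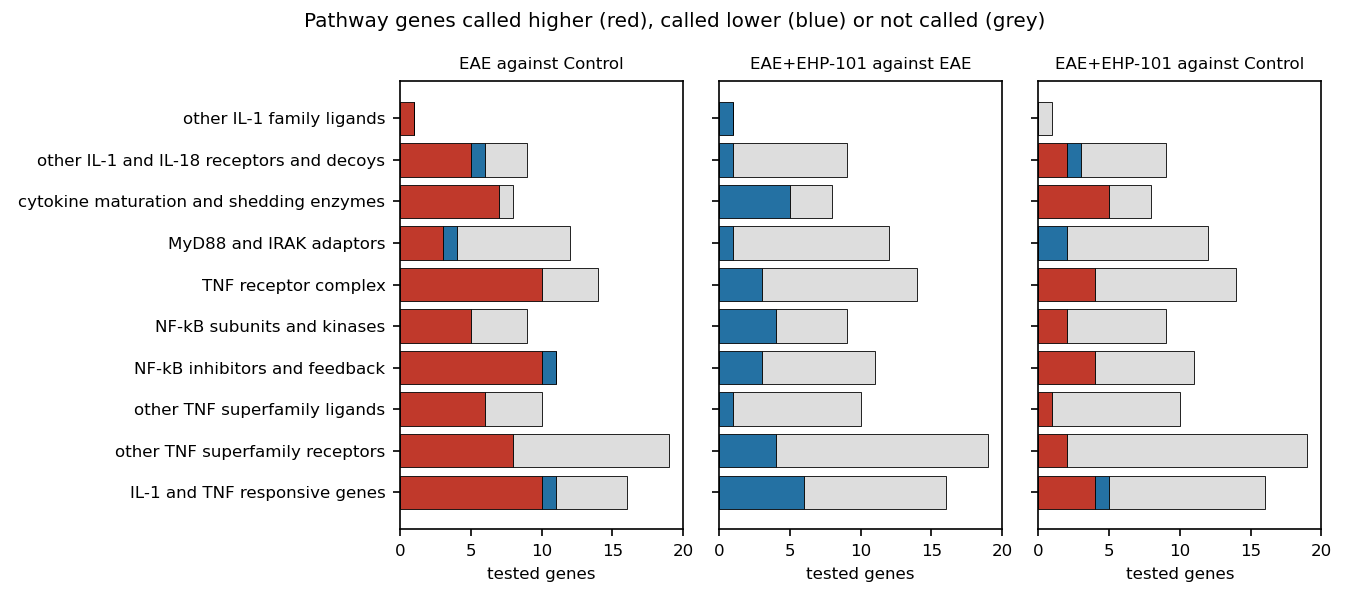
Number of tested genes in each of the 10 pathway lists (bar length) called higher, called lower or not called in the 3 comparisons. In EAE against Control red bars make up 10 of the 11 genes of the NF-kB feedback list and 7 of the 8 maturation and shedding genes, while the MyD88 and IRAK list is mostly grey in all 3.

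Genes of the list for maturation and shedding of these cytokines, not all of them enzymes, rose in EAE in 7 of 8. In treated mice 5 of the 8 fell against EAE. Among the 7 was Adam17 (log2 0.387, adjusted p = 0.0161), the TNF sheddase gene. Its call ended without Control replicate 1, Control replicate 2 or EAE replicate 2, at adjusted p of 0.07 to 0.0961. Pycard, the inflammasome adaptor, went from 2.66 ± 0.383 to 13.2 ± 1.79 CPM (log2 2.32, SE 0.21) and was lower in treated mice by 1.21 log2 units (SE 0.20, adjusted p = 0.00546). Casp4, a caspase that cleaves gasdermin D, rose by log2 3.07 (SE 0.32) and was lower on treatment, at log2 -1.58 (SE 0.28, adjusted p = 0.00755). Gsdmd, the pore former, and Nlrp3, an inflammasome sensor, rose in EAE as well (log2 2.05, SE 0.23, and log2 1.79, SE 0.23). Rhbdf2, a partner of the TNF sheddase ADAM17, was lower in treated mice than in EAE (log2 -1.19, SE 0.23, adjusted p = 0.0115), a call that ended without EAE replicate 2 (adjusted p = 0.0645). That of Nlrp3 on treatment (adjusted p = 0.0223) ended in 5 of the 9 fits with a library left out, at adjusted p of 0.0559 to 0.0805. Against Control 5 of the 8 were higher in treated mice, with Pycard (log2 1.11, SE 0.22, adjusted p = 0.00902) first. All 5 calls ended without treated replicate 2, at adjusted p from 0.0535 for Pycard to 0.156 for Casp1.

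Of 6 other IL-1 family ligand genes only Il33, an alarmin, had enough counts to be tested, and it rose by log2 0.49 (SE 0.08, adjusted p = 0.00129). On treatment Il33 was called lower (log2 -0.334, adjusted p = 0.0441). That call ended with the length trend removed (adjusted p = 0.122). Among the fits with a library left out it passed only without Control replicate 3 or EAE replicate 1. Of 9 receptor and decoy genes 5 rose and 1 fell in EAE. Il18r1, the IL-18 receptor, had 0 counts in the Control libraries and 293 in EAE, at least 93.8-fold higher against a floor of 3 counts over the group. Its partner Il18rap rose by log2 3.59 (SE 0.54) and the secreted IL-18 binding protein gene Il18bp by log2 0.89 (SE 0.18). The IL-18 receptor genes thus rose where Il18 itself was not called. On treatment only Il1rl2, the IL-36 receptor, was called lower in this list (log2 -0.995, SE 0.24, adjusted p = 0.0346), and the call ended in 7 of the 9 fits with a library left out, at adjusted p of 0.0513 to 0.160. In treated mice Il18r1 had 88 counts, at least 29.1-fold above the same floor in Control. These bounds leave out counting error, and Il18r1 passed the filter on counts through the EAE libraries. Of the 88, 60 were in treated replicate 3, 22 in replicate 2 and 6 in replicate 1.

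Of 12 adaptor and kinase genes next to the IL-1 receptor 3 were higher and 1 lower in EAE, with a median of log2 0.06. Over all tested genes 20.2% were higher and 16.7% lower, so the 3 of 12 lay near the share of all genes. Myd88, the adaptor next to the receptor, rose by log2 0.70 (SE 0.14) and the kinase gene Irak4 by 0.73 (SE 0.13), while Tab3 fell by 0.31 on the log2 scale (SE 0.06). The third rise, of Irak3, had adjusted p = 0.0451, and passed without EAE replicate 3 alone among the fits with a library left out. Treated mice differed from EAE in 1 of 12, beside 4.81% of all tested genes called lower. That gene, Irak2 (log2 -0.37, SE 0.08, adjusted p = 0.0242), lost the call in 4 of the 9 fits with a library left out, at adjusted p of 0.0638 to 0.148.

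Of the 14 genes of the TNF receptor complex 10 rose in EAE and 3 fell on treatment. The 10 became 5 with the length trend removed, where Tradd, Traf2, Traf5, Rbck1 and Sharpin lost the call, and 5 to 11 with a library left out, with 4 called in every such fit. Those 4 were Ripk3, Birc3, Casp8 and Ripk1. Ripk3, a kinase of necroptosis, rose by log2 2.18 (SE 0.29), Birc3, a ubiquitin ligase of the complex, by 1.38 (SE 0.18), Casp8 by 1.37 (SE 0.19) and Ripk1 by 0.62 (SE 0.10). The falls on treatment were those of Casp8 (log2 -0.97, adjusted p = 0.0120), Birc3 (log2 -0.83, adjusted p = 0.0167) and Ripk3 (log2 -1.11, adjusted p = 0.0283). Each of these 3 calls ended without EAE replicate 1, EAE replicate 2 or treated replicate 2, at adjusted p of 0.0533 to 0.165, and that of Ripk3 also without treated replicate 1 (0.102) or 3 (0.0900).

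NF-kB genes rose in EAE in 5 of 9 subunit and kinase genes and in 10 of 11 inhibitor and feedback genes. The 5 were called with the length trend removed and with each library left out. The 10 became 6 with the length trend removed, where Nfkbib, Nfkbid, Tnip1 and Tnip2 lost the call (adjusted p = 0.147 to 0.5), and 6 to 9 with a library left out. The gene called lower, Cyld, was at log2 -0.0195 with the length trend removed (adjusted p = 0.853). Nfkb2 (log2 1.43, SE 0.14), Relb (log2 1.01, SE 0.14) and Map3k14 (log2 1.05, SE 0.15), which act in the non-canonical branch, led the subunits and kinases, and Rela rose by log2 0.40 (SE 0.07). Of the feedback genes Bcl3 rose by log2 1.82 (SE 0.23), Zc3h12a, an RNase that degrades cytokine transcripts, by 1.66 (SE 0.22), Tnfaip3, the ubiquitin-editing protein A20, by 1.34 (SE 0.16) and Nfkbie by 0.94 (SE 0.13). On treatment 4 of 9 and 3 of 11 were lower, among them Nfkb2 (log2 -0.79, SE 0.14, adjusted p = 0.00705) and Tnfaip3 (log2 -0.99, SE 0.16, adjusted p = 0.00470), both called with each library left out. The other 5, Nfkb1, Relb, Map3k14, Bcl3 and Nfkbie, each lost the call without EAE replicate 2, at adjusted p of 0.0510 to 0.156.

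Other TNF superfamily genes rose in EAE in 6 of 10 ligands and 8 of 19 receptors tested, and in 4 and 6 with the length trend removed. Tnfsf11 (log2 3.55, SE 0.64), the ligand of RANK, Ltb (log2 2.91, SE 0.59), a subunit of lymphotoxin, and Tnfsf8 (log2 2.41, SE 0.33), the CD30 ligand, were among them. Ltbr, the lymphotoxin beta receptor, rose by log2 0.94 (SE 0.10), Tnfrsf14 by 1.98 (SE 0.32) and Tnfrsf9, the receptor 4-1BB, by 1.69 (SE 0.29). On treatment 1 ligand and 4 receptor genes were lower, of which Tnfrsf9 (log2 -1.59, SE 0.29, adjusted p = 0.00881) was called with each library left out.

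Genes known to respond to IL-1 and TNF rose in EAE in 10 of 16 tested and fell in 1. The 10 became 8 with the length trend removed and 7 to 11 with a library left out, with 7 called in every such fit. Ccl2, a monocyte chemokine, rose by log2 5.28 (SE 0.57), Lcn2, a siderophore-binding protein, by 3.81 (SE 0.36), Icam1, a leukocyte adhesion ligand, by 2.47 (SE 0.27) and Tnfaip2 by 1.85 (SE 0.16). Saa3, an acute phase protein, had 0 counts in Control and 372 in EAE, at least 119-fold higher against a floor of 3 counts over the group. Like Il18r1 it passed the filter on counts through the EAE libraries. On treatment 6 of 16 were lower, with Tnfaip2 (log2 -1.35, SE 0.16, adjusted p = 0.00141), Lcn2 (log2 -1.64, SE 0.30, adjusted p = 0.00910) and Icam1 (log2 -1.32, SE 0.25, adjusted p = 0.0102) called with each library left out. The fall of Saa3 (log2 -2.42, SE 0.43, adjusted p = 0.0117) was not called without EAE replicate 2 (adjusted p = 0.0502) or treated replicate 2 (adjusted p = 0.0623), and was at log2 -3.31 without treated replicate 3. Ccl2 was lower on treatment as well (log2 -1.76, adjusted p = 0.023). That call ended without EAE replicate 1, EAE replicate 2 or treated replicate 2, at adjusted p of 0.051 to 0.111. Treated mice still exceeded Control in Ccl2 (log2 3.52, SE 0.64, adjusted p = 0.00710) and Lcn2 (log2 2.18, SE 0.37, adjusted p = 0.00589).

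Markers of several cell types differed between the groups as well. Over all tested genes 20.2% were called higher and 16.7% lower in EAE, and 4.81% lower on treatment. Against Control 9.96% were called higher in treated mice. The 9 microglia markers summed to 405 to 511 CPM in Control, 916 to 1218 CPM in EAE and 494 to 686 CPM in treated mice, and 7 of 9 were called higher in EAE and 6 of 9 lower on treatment. The 8 monocyte and macrophage markers summed to 10.8 to 17.6, 403 to 562 and 31.2 to 74.3 CPM, with 6 of 8 higher in EAE and 4 of 8 lower on treatment. T cell markers summed to 1.04 to 1.80, 18.1 to 22.3 and 2.17 to 11.0 CPM, with 9 of 9 higher in EAE and 3 of 9 lower on treatment. Every microglia and monocyte marker had reads in each library, whereas up to 2 of the 9 T cell markers were at 0 in a Control library. The 10 neutrophil markers summed to 13.2 to 22.5, 37.7 to 64.0 and 42.9 to 78.3 CPM. Of the 8 tested, 1 was higher in EAE, 1 lower on treatment and 7 higher in treated mice than in Control. The 7 endothelium markers summed to 202 to 315 CPM in Control, 101.01 to 162 CPM in EAE and 183 to 220 CPM in treated mice, with 7 of 7 lower in EAE and 0 of 7 called on treatment. The 7 fibroblast and pericyte markers summed to 80.2 to 105 CPM, 189 to 204 CPM and 85.4 to 117 CPM, with 5 of 7 higher and 1 lower in EAE and 5 of 7 lower on treatment. B cell markers summed to 1.23 to 2.102, 11.2 to 18.4 and 1.54 to 5.60 CPM, with 3 of 3 tested higher in EAE and 1 lower on treatment. Dendritic cell markers summed to 33.3 to 47.3, 63.3 to 73.4 and 38.2 to 43.8 CPM, with 4 of 6 higher in EAE and 1 lower on treatment. Astrocyte markers were higher in EAE in 3 of 6 and neuron markers lower in 3 of 8. The part of these cells in the changes of the 9 genes was not tested.

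The genes whose log2 CPM followed each member most closely over the 9 libraries were found by Pearson's r. It is given without a test, since these genes were picked by r from the same libraries and group differences enter it. With the group means removed, r over these pairs was 0.815 (Il1b with Ppp1r14b) to 0.971 (Tnfrsf1b with Gm2a). Il1a was closest to Olfml3 and Pycard (both r = 0.994), and Il1rn to Myo1g (r = 0.993) and Ikzf1 (r = 0.989). Il1b was closest to Tns4 (r = 0.988) and Ppp1r14b (r = 0.981), and Tnf to Piezo2 (r = 0.987) and Vasp (r = 0.986). Among the receptors Tnfrsf1a was closest to Blnk and Unc93b1 (both r = 0.994), Tnfrsf1b to Gm2a (r = 0.997) and Gusb (r = 0.994), and Il1r1 to Myo1c (r = 0.970) and Xdh (r = 0.969). How far Il1rap and Il18 followed the other members was not examined. Il1rap was closest to Txndc16 (r = 0.968) and Sgpp1 (r = 0.937), and Il18 to Pkp4 (r = 0.945) and Smarce1 (r = 0.923).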

How the data were processed

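RNA was extracted from spinal cord with QIAzol and a lipid tissue kit, and 1 µg per sample went into poly-A selected stranded libraries read as single ends of 50 bp, per the labels' protocols. The deposited values are read counts per gene under Entrez identifiers, not normalised, with exon positions and lengths, per the file headers. Per the submitters' processing notes, build mm10 was used with featureCounts 1.6.1, HISAT2 2.1.0, DESeq2 1.20.0 and Trimmomatic 0.36 (roles not given). Neither the strand setting nor the treatment of multiply mapped reads is stated there. Symbols came from RefSeq (GRCm38.p6), which matched 25275 of 27179 identifiers. The 1904 others held 0.311% to 0.619% of the counts of a library.

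In R 4.3.3 with edgeR 4.0.16, genes were kept by filterByExpr, scaled by TMM and fitted by quasi-likelihood with 1 mean per group over 9 libraries (prior degrees of freedom 5.28). SE was taken from the fold change and its F statistic, and intervals are 95%. Libraries of 1 group differed beyond sampling noise (chi-square per degree of freedom 6.36 to 26.1) and each counted as 1 sample. The p-values set group differences against the spread between these mice, estimated over all 3 groups with part borrowed from other genes. The libraries belong to 1 experiment, so spread between experiments is not covered. Ratios within a library used a pseudocount of 0.5 counts. Alternatives were other scalings, DESeq2 1.42.0, limma 3.58.1, other filters, pairs of groups, a replicate block, removal of the length trend and leaving out each library. The pipeline was tested on simulated data.

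The 9 genes and the lists were chosen with earlier results of these data known. Besides the 9 genes, the text names up to 4 genes of each list per comparison by smallest p and the 2 genes closest to each member by Pearson's r (log2 CPM, prior count 2). Genes of predicted or RIKEN kind, pseudogenes and receptor segments were left out. Saa3 in EAE, Gm14023, Gm20319 and list genes named for a lost call were named after their values were seen. The counts of the pathway lists with a library left out or the length trend removed were added after seeing the data.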

Additional observations from a re-analysis of the deposited data

How the results depend on the processing

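Over the 9 genes, 85 of 89 values for EAE against Control kept direction and side of the threshold under the settings other than left-out libraries, as did 86 of 89 for treated mice against EAE and 76 of 87 for treated mice against Control. With a library left out the numbers were 71, 74 and 63 of 81. Tnf had too few counts for the filter of 1 CPM in 3 libraries. With only treated and Control libraries fitted, Tnf and Il1rn had too few for the main filter. Directions reversed for small differences. With the length trend removed Il1rap was at 0.11, -0.0106 and 0.10 in the 3 comparisons (in the order of the report) and Il18 at -0.28 in EAE and -0.14 in treated mice against Control. With a library left out Il18 ranged from -0.0079 to 0.10 for EAE against Control and from -0.0183 to 0.0766 for treated mice against EAE, Il1rap from -0.28 to 0.0221 for EAE and from -0.23 to 0.0696 for treated mice against Control, and Il1r1 from -0.0910 to 0.27 for treated mice against Control. The cause was not tested.

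The 7, 5 and 4 genes called in the 3 comparisons became 6 to 7, 3 to 6 and 0 to 5 with a library left out. Over all genes the counts of 6191, 877 and 3314 ranged from 4378 to 7095, from 370 to 1170 and from 629 to 3739. Treated mice against Control gave 1391 calls with the length trend removed. Same-numbered libraries were not paired by the labels, and their deviations from the group means correlated at -0.187 to 0.123, with 1 of 9 libraries closest to its own number. With the replicate block there were 5345, 722 and 2272 calls, and of the 9 genes only Il1r1 in EAE changed its call (adjusted p = 0.0668).

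With a pseudocount of 2 counts the log2 ratio of Tnf to Il1b reversed to -0.0788 for EAE and -0.27 for treated mice against Control, and that of Tnfrsf1b to Tnfrsf1a to -0.00019 for treated mice against Control. With a library left out Tnf to Il1b ranged from -0.14 to 1.63 and from -0.46 to 1.315 in those comparisons, Il1rn to Il1b from -0.54 to 0.40 for treated mice against EAE and from -0.12 to 2.075 against Control, Il1r1 to Il1rap from -0.16 to 0.48 and Tnfrsf1b to Tnfrsf1a from -0.12 to 0.0742 for treated mice against Control. Depth limits Tnf, Il1b and Il1rn, with 3, 12 and 7 counts over the Controls.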
